A study of Homo sapiens with 8 samples.

Results

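The 10 genes described here encode mTOR (MTOR), a defining subunit of each of its complexes (RPTOR and RICTOR), its upstream inhibitors (TSC1, TSC2, DDIT4 and SESN2) and its effectors in translation (RPS6KB1, EIF4EBP1 and EIF4EBP2). They were looked up by symbol among 19964 genes with a coding transcript, and all 10 were found. Each gene was represented by the coding transcript with the most ribo-seq reads on its coding sequence (CDS) over both control libraries. The list was chosen by the ribosome occupancy and translation efficiency of EIF4EBP2, which were already known to be much lower after arsenite. The changes of EIF4EBP2 under arsenite are therefore given as a description, with no test.

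HEK293T cells are an established line of human embryonic kidney origin that carries the SV40 large T antigen. For 30 min they received vehicle alone or sodium arsenite at 40 µM, an agent that causes oxidative stress and phosphorylation of the initiation factor eIF2. Ribo-seq, which sequences mRNA fragments protected by ribosomes, and mRNA-seq, which sequences fragments of the mRNA itself, were each carried out on control and arsenite-treated cells in 2 replicates, so that the series holds 8 libraries. The question addressed here is whether mRNAs of the other main translational control pathway of these cells changed in level or in translation within this time. All groups are of this single transformed line, and the study's methods describe the 2 replicates as biological and independent of each other.

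mTOR is a protein kinase that adjusts protein synthesis to nutrients, growth factors and stress. With RPTOR it forms mTORC1, which phosphorylates the S6 kinases and the 4E-BPs, and with RICTOR it forms mTORC2, which phosphorylates AKT. Hypophosphorylated 4E-BPs bind the cap-binding protein eIF4E and keep it from eIF4G, so that cap-dependent initiation is reduced, and phosphorylation by mTORC1 releases them. TSC1 and TSC2 together hold the small GTPase RHEB, an activator of mTORC1, in its inactive form.

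The ribo-seq libraries held 1023935 to 7270196 reads on the transcripts used and the mRNA-seq libraries 3993293 to 21724945, with the smaller number of each assay in replicate 1. In mRNA-seq, 6 genes characteristic of HEK293T stood at 41.9 to 428 normalized reads per 1000000 (cpm) and 8 markers of other cell types at no more than 0.769 cpm. The cpm values here were scaled by the trimmed mean of M-values (TMM), which sets the bulk of mRNAs to no change. A general fall in ribosome load across all mRNAs therefore does not appear in them, and a value near 0 on the log2 scale means a change like that of most mRNAs.

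EIF4EBP2 lost most of its CDS footprints relative to other mRNAs, while its mRNA level hardly moved. EIF4EBP2 encodes a 4E-BP closely related in function to EIF4EBP1. In replicate 1 its CDS held 56 footprints in control against 10 with arsenite, and in replicate 2 it held 245 against 27. Normalized, this was 32.2 cpm in both control libraries against 10.4 and 8.31 cpm in the arsenite libraries, so that the groups were far apart and the replicates close to each other. The log2 change in occupancy was -1.83 ± 0.31 (SE), a level 3.55-fold lower, with -1.59 in replicate 1 and -1.93 in replicate 2.

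In mRNA-seq the EIF4EBP2 transcript held 389 cpm in control and 376 cpm in arsenite in replicate 1, and 343 and 339 cpm in replicate 2. The log2 change in RNA level was -0.03 ± 0.05 (SE), with a 95% interval of -0.13 to 0.07. Translation efficiency (TE) is the ribo-seq level of a gene relative to its mRNA-seq level, and its change is the change in ribosome occupancy that the change in RNA level does not account for. For EIF4EBP2 the log2 change in TE was -1.82 ± 0.23 (SE), with -1.55 and -1.93 in replicates 1 and 2. This was the 8th lowest of 10273 genes for TE, and for occupancy the gene was the 11th lowest of 10291. These ranks describe the values for which the gene was picked.

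**Figure D1:**
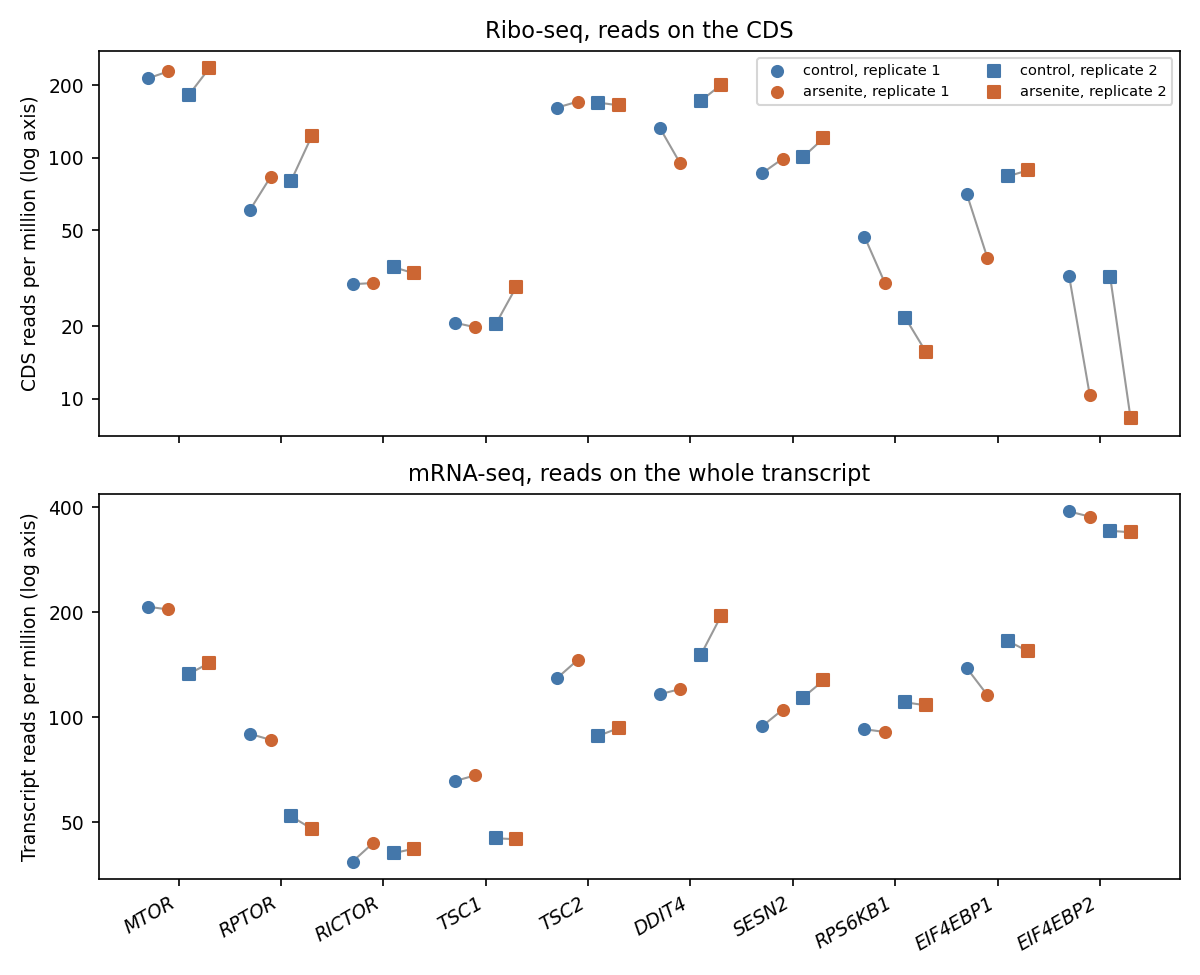
TMM-normalized cpm (log axes) of the 10 genes in each library, with ribo-seq reads on the CDS above and mRNA-seq reads on the whole transcript below. Lines join control (blue) and arsenite (orange) of a replicate (circles, replicate 1; squares, replicate 2). The ribo-seq level of EIF4EBP2 drops from 32.2 cpm to 10.4 and 8.31 cpm while its mRNA-seq level stays between 339 and 389 cpm.

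EIF4EBP1, the best studied 4E-BP, gave no such picture. In replicate 1 it had 123 CDS footprints in control against 37 with arsenite, and in replicate 2 it had 638 against 289. Normalized occupancy was 70.8 and 38.6 cpm in replicate 1 and 83.8 and 88.9 cpm in replicate 2, so that it was lower with arsenite in one replicate and slightly higher in the other. Occupancy had a log2 change of -0.26 ± 0.23 (SE, adjusted p = 0.612) and TE one of 0.0036 ± 0.23 (adjusted p = 0.996), with TE values of -0.59 in replicate 1 and 0.19 in replicate 2. The 95% interval of its TE change was -0.52 to 0.53. Its mRNA stood at 138 cpm in control and 116 cpm in arsenite in replicate 1, and at 166 and 155 cpm in replicate 2. Its RNA change of -0.14 ± 0.06 (SE, log2) did not pass the threshold (adjusted p = 0.124).

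The TE change of EIF4EBP2 minus that of EIF4EBP1 was -1.82 ± 0.33 on the log2 scale (SE from the SEs of both fits), with -0.96 in replicate 1 and -2.12 in replicate 2. The size of the difference between these 2 genes therefore depended on the replicate, through EIF4EBP1 more than through EIF4EBP2. EIF4EBP3, which encodes the remaining 4E-BP, had 0 CDS reads in all 4 ribo-seq libraries and was not tested. Its exons are shared with the readthrough gene ANKHD1-EIF4EBP3, and the counting discarded reads of more than 1 gene.

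The TE changes of the 9 genes other than EIF4EBP2 lay between -0.49 and 0.67, with a median of 0.00, against a median of -0.01 over all genes tested. None of the 9 passed the edgeR quasi-likelihood test for TE after Benjamini-Hochberg adjustment, where 2.15% of all genes did, or for ribosome occupancy, where 2.81% did. At an unadjusted p under 0.05 there were 2 of 9 for TE and 1 of 9 for occupancy, against 21.3 and 17.6% of all genes, and DESeq2 called 0 of 9 for TE and 0 of the 6 to which it gave an adjusted p for occupancy. Only for RNA level was 1 of the 9 past the threshold, against 5.75% of all genes. The TE change of EIF4EBP2 was below that of each of the 9 in both replicates, with a difference of -1.32 on the log2 scale from the nearest of them, RPS6KB1, and of -2.49 from the farthest, RPTOR. EIF4EBP2 was picked for its low value, so this order describes that choice and was not tested.

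**Figure D2:**
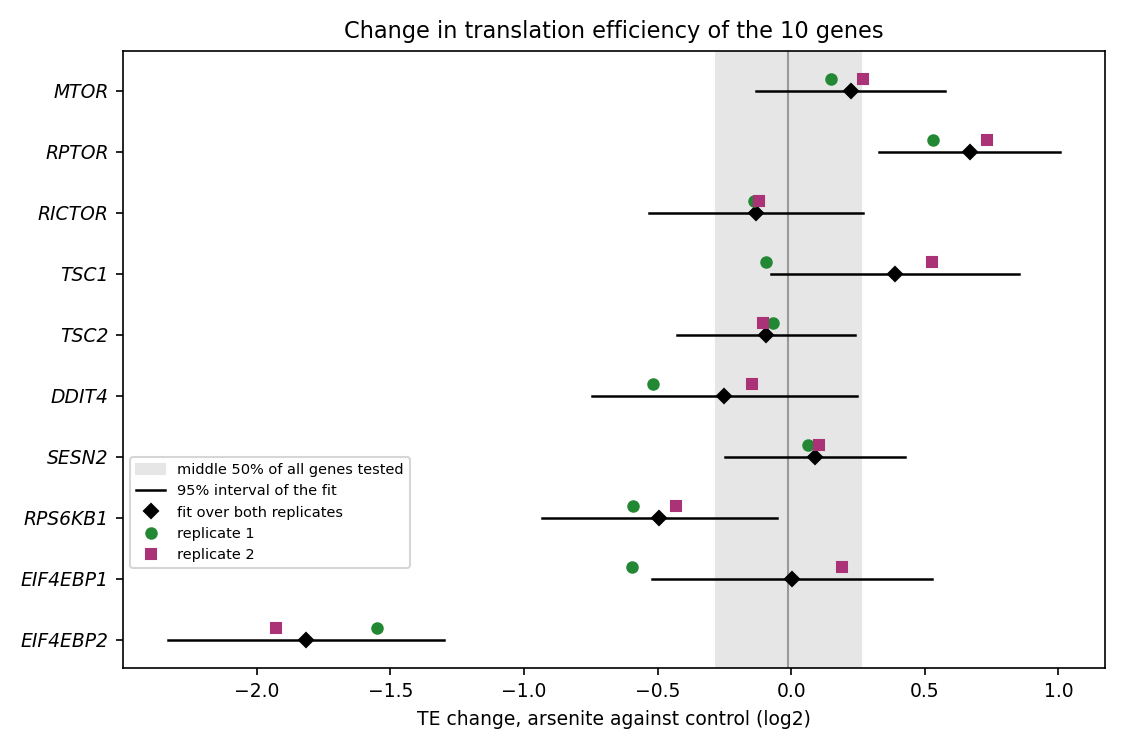
Change in TE with arsenite on the log2 scale for each of the 10 genes, with the fit over both replicates (diamonds), its 95% interval (lines), the value within each replicate (green circles, replicate 1; purple squares, replicate 2) and the middle 50% of 10273 genes (grey band). EIF4EBP2, picked for its low value, lies at -1.82, and the other 9 genes lie between -0.49 and 0.67.

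Among the subunits of the complexes, RPTOR had the highest value. RPTOR, the scaffold that brings substrates to mTORC1, had 106 CDS footprints in control against 80 with arsenite in replicate 1, and 612 against 399 in replicate 2. After normalization these were 61.0 and 83.5 cpm in replicate 1 and 80.4 and 123 cpm in replicate 2, both higher with arsenite, and both arsenite libraries lay above both control libraries. Its mRNA was at 89.6 and 86.2 cpm in replicate 1 and at 52.0 and 47.9 cpm in replicate 2, a log2 change of -0.10 ± 0.07 (SE, adjusted p = 0.477).

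The TE of RPTOR had a log2 change of 0.67 ± 0.15 (SE), with 0.53 and 0.73 in the replicates, and just missed the threshold (adjusted p = 0.0536). Over the alternative analyses this p ranged from 0.0470, with no filter on low counts, to 1.00, without the replicate block. Its occupancy had a log2 change of 0.56 ± 0.20 (SE, adjusted p = 0.139).

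MTOR and RICTOR lay nearer the bulk of mRNAs than RPTOR. MTOR, the kinase itself, was at 214 cpm in control and 229 cpm in arsenite in ribo-seq of replicate 1, and at 182 and 235 cpm in replicate 2. As for RPTOR, both arsenite libraries lay above both control libraries. The log2 change of MTOR in TE was 0.22 ± 0.16 (SE, adjusted p = 0.449), with a 95% interval of -0.13 to 0.58. RICTOR, the defining subunit of mTORC2, was at 29.9 and 30.3 cpm in replicate 1 and at 35.2 and 33.2 cpm in replicate 2. Its log2 change in TE was -0.13 ± 0.18 (SE, adjusted p = 0.711), and the 95% interval of -0.53 to 0.27 leaves room for changes of that size. RNA levels of both had log2 changes of 0.06 and 0.07, with adjusted p of 0.603 and 0.682.

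Of the TSC complex, TSC2, which carries the GTPase-activating domain, was close to no change. Its occupancy was 162 cpm in control and 171 cpm in arsenite in replicate 1 and at 170 and 165 cpm in replicate 2, which gave a log2 change in TE of -0.09 ± 0.15 (SE, adjusted p = 0.753). TSC1, the partner that stabilizes TSC2, had few reads. There were 36 CDS footprints in control against 19 with arsenite in replicate 1, and 156 against 95 in replicate 2. Its normalized occupancy was 20.7 and 19.8 cpm in replicate 1 and 20.5 and 29.2 cpm in replicate 2, so that it was higher with arsenite only in replicate 2. Its TE change of 0.39 ± 0.21 (SE, log2) did not pass the threshold (adjusted p = 0.313).

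DDIT4, also known as REDD1, is a stress-induced protein that restrains mTORC1 through the TSC complex, and its mRNA rose. It stood at 116 cpm in control and 121 cpm in arsenite in replicate 1, and at 151 and 196 cpm in replicate 2. The log2 change in RNA level was 0.29 ± 0.06 (SE, adjusted p = 1.69e-05), which is 1.23-fold, but the rise was 0.05 in replicate 1 and 0.38 in replicate 2, so that its size came from replicate 2. DDIT4 did not pass the threshold with DESeq2 or in the fit without the replicate block (adjusted p = 0.405 and 0.9999).

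The ribosome occupancy of DDIT4 moved in opposite directions in the replicates. It was 134 cpm in control and 94.96 cpm in arsenite in replicate 1, and 172 and 201 cpm in replicate 2. Occupancy had a log2 change of -0.07 ± 0.20 (SE, adjusted p = 0.9004) and TE one of -0.25 ± 0.22 (adjusted p = 0.549). The 95% interval of the occupancy change, -0.49 to 0.35, includes the log2 change in RNA level of 0.29. Whether occupancy followed the RNA level therefore cannot be told from these replicates.

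SESN2, a stress-induced leucine sensor that inhibits mTORC1 through the GATOR complexes, was higher in every comparison, though none passed the threshold. Its mRNA was at 94.2 and 105 cpm in replicate 1 and at 114 and 128 cpm in replicate 2, and its log2 change of 0.16 ± 0.06 (SE) had an adjusted p of 0.0753. Its ribosome occupancy was 86.3 and 99.1 cpm in replicate 1 and 101 and 121 cpm in replicate 2, with a log2 change of 0.25 ± 0.20 (SE, adjusted p = 0.551). The log2 change in TE was 0.09 ± 0.15 (SE, adjusted p = 0.768).

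RPS6KB1 encodes the p70 S6 kinase, the mTORC1 substrate that phosphorylates ribosomal protein S6, and came nearest to EIF4EBP2. Replicate 1 gave 82 CDS footprints in control against 29 with arsenite, and replicate 2 gave 165 against 51. This was 47.2 and 30.3 cpm in replicate 1 and 21.7 and 15.7 cpm in replicate 2, lower with arsenite in both, although the 2 control libraries differed more from each other than control from arsenite. TE had a log2 change of -0.49 ± 0.20 (SE), with -0.59 and -0.43 in the replicates, and did not pass the threshold (adjusted p = 0.191). The mRNA of RPS6KB1 had a log2 change of -0.03 ± 0.06 (SE, adjusted p = 0.874).

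**Figure D3:**
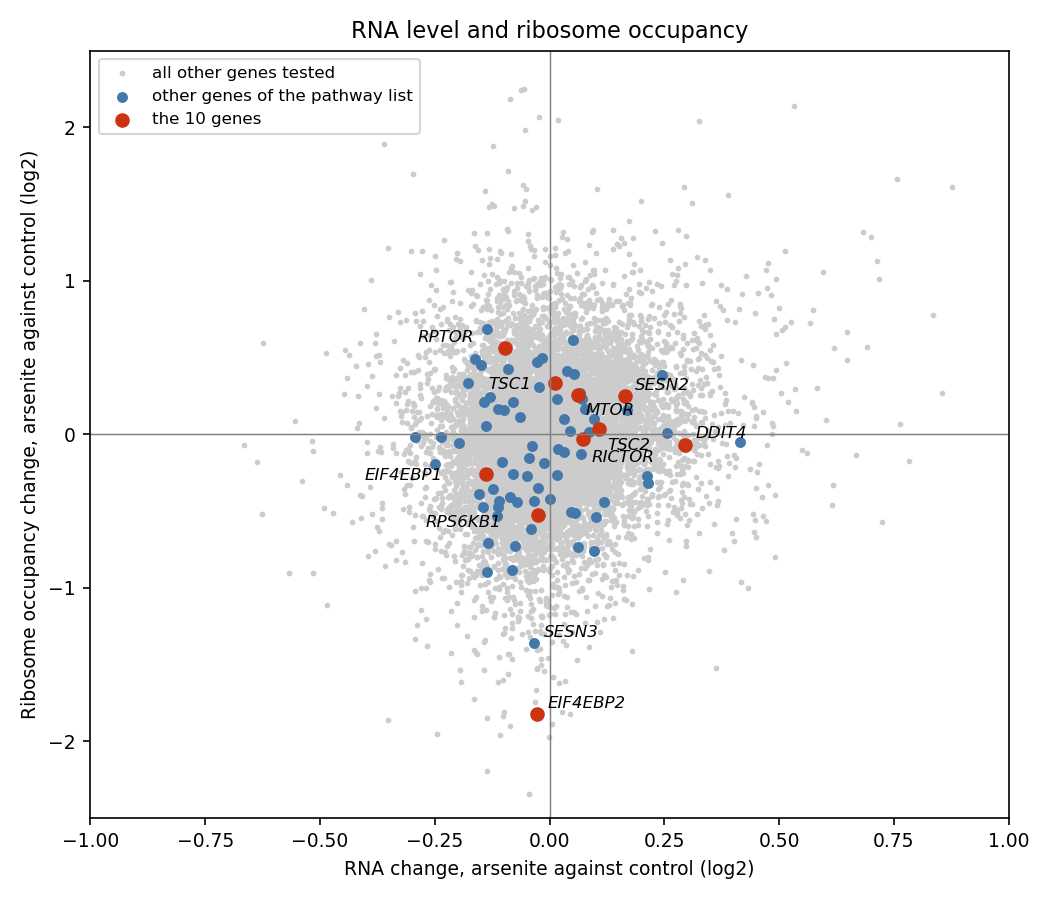
Change in RNA level (x axis) and in ribosome occupancy (y axis) with arsenite, both on the log2 scale, for 10273 genes (grey, 6 of them outside the axes), with the other genes of the pathway list in blue and the 10 genes in red. EIF4EBP2 lies at -0.03 and -1.83, whereas DDIT4, the red point farthest to the right, lies at 0.29 and -0.07.

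TE in control cells is a level, not a change, though it rests on the same control libraries as the changes above. It was taken as the log2 ratio of a gene's share of CDS ribo-seq reads to its share of CDS mRNA-seq reads, so that the length of the CDS cancels. The median over 8807 genes was -0.21. DDIT4 was highest at 0.73 ± 0.36 (SD, n = 2), followed by SESN2 at 0.45 ± 0.07, both above most genes in each replicate. RPTOR at -0.02 ± 0.98, TSC2 at -0.02 ± 0.39, RICTOR at -0.05 ± 0.44 and MTOR at -0.20 ± 0.26 lay close together.

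At the lower end, RPS6KB1 had a log2 TE in control of -0.48 ± 0.55 (SD, n = 2), EIF4EBP1 of -0.81 ± 0.47, TSC1 of -1.11 ± 0.61 and EIF4EBP2 of -1.16 ± 0.99. No 2 neighbours in this order were farther apart than the larger of their SDs. EIF4EBP2 was at -1.86 in replicate 1, higher than 6.47% of genes, and at -0.46 in replicate 2, higher than 36.02%, so that its place is known only roughly. EIF4EBP1 was at -1.14 and -0.48, and the 2 genes stood side by side in replicate 2.

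The mRNA-seq reads of EIF4EBP2 came mostly from its 3′ UTR, with 77.7 to 89.7% of the transcript's reads in the 4 libraries, against 26.8 to 53.3% for EIF4EBP1 over its libraries. The TE of EIF4EBP2 in control was therefore -3.53 when mRNA-seq reads were taken over the whole transcript, which put it above only 0.327% of genes in place of 14.6%. This choice of reads also changed the order of the other genes. With whole-transcript mRNA-seq reads, where lengths no longer cancel, TSC2 was highest at 0.60, MTOR was at 0.22, DDIT4 at 0.17, SESN2 at -0.18 and RPS6KB1 at -1.68. When mRNA-seq reads were counted on the CDS only, the log2 change of EIF4EBP2 with arsenite was -0.19 in place of -0.03 for RNA level and -1.65 in place of -1.82 for TE.

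Footprints outside the CDS were few. In replicate 2, 13 of 40 ribo-seq reads on the EIF4EBP2 transcript lay in the 3′ UTR after arsenite (32.5%, 95% Wilson interval 20.1 to 48.0%) against 1 of 254 in control (0.394%, 0.0695 to 2.20%). Replicate 1 gave 0 of 10 and 0 of 56, which allow shares of up to 30.0% and 5.36%. Intervals and limits here cover counting error only. Set against the mRNA-seq reads of the same 3′ UTR, this was 0.164 ribo-seq reads per 1000 in control and 1.92 in arsenite in replicate 2. Over all genes the corresponding values were 2.09 and 2.91, so that the 3′ UTR of EIF4EBP2 was below the general level in control and nearer to it after arsenite. EIF4EBP1 had 14 of 652 reads in its 3′ UTR in control (2.15%) and 15 of 304 in arsenite (4.93%) in replicate 2, and none in replicate 1.

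In the 5′ leader, EIF4EBP2 held 8 of 254 ribo-seq reads in control (3.15%, 95% Wilson interval 1.60 to 6.09%) and 0 of 40 in arsenite in replicate 2, which allows a share of up to 7.5%. RPTOR and SESN2 had the largest leader shares of the 10 genes in control in replicate 2. RPTOR had 3 of 109 reads in the leader in control and 7 of 87 in arsenite in replicate 1 (2.75 and 8.05%), and 32 of 645 and 26 of 426 in replicate 2 (4.96 and 6.10%). SESN2 had 5 of 155 and 5 of 100 in replicate 1 (3.23 and 5.0%), and 30 of 799 and 23 of 417 in replicate 2 (3.75 and 5.52%). Both shares were higher with arsenite in both replicates, with overlapping intervals within each. Over all genes the leader share went from 0.392 to 0.490% in replicate 1 and from 0.795 to 1.52% in replicate 2. DDIT4 had 15 of 1328 leader reads in control and 10 of 667 in arsenite in replicate 2 (1.13 and 1.499%), and none in replicate 1. The remaining genes had at most 4 leader reads in any library.

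A list of 78 other genes of the pathway showed how far these patterns extended. Their median log2 change in TE was -0.09 over 69 genes tested, against -0.01 over all genes, and 1 of the 69 passed the threshold, lower, with 0 higher, against 2.15% of all genes. That gene was SESN3, a paralog of SESN2. Replicate 1 gave 37 CDS footprints in control against 11 with arsenite, and replicate 2 gave 181 against 25. Its log2 change in TE was -1.38 ± 0.26 (SE, adjusted p = 0.0346), with -0.82 and -1.58 in the replicates, and that in occupancy -1.36 ± 0.33 (adjusted p = 0.0289), also the only call among 69 genes, against 2.81% of all genes. The mRNA of SESN3 had a log2 change of -0.03 ± 0.06 (SE, adjusted p = 0.831). Without the replicate block the adjusted p for TE was 1.00, and with mRNA-seq reads counted on the CDS only it was 0.0580.

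The 3 sestrins can be set side by side, although differences among them were not tested. SESN2 had log2 changes in TE and RNA level of 0.09 and 0.16, neither past the threshold. SESN1 had 0.04 for TE (adjusted p = 0.926), and its RNA level fell by 0.25 on the log2 scale (SE 0.08, adjusted p = 0.0279). SESN3 passed the threshold for TE and occupancy and not for RNA level.

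RNA levels of the pathway list moved little. Of 77 genes tested, 2 were higher and 4 lower past the threshold, near the 5.75% of all genes that passed, and their median log2 change was -0.04 against -0.01 over all genes. Those higher were EIF4G1, the eIF4F scaffold that 4E-BPs displace from eIF4E, at 0.24 ± 0.05 (SE, adjusted p = 5.99e-05), and PRKAB1, a beta subunit of the energy sensor AMPK, at 0.25 ± 0.08 (adjusted p = 0.0193). Those lower, beside SESN1, were LAMTOR2, a subunit of the Ragulator complex that anchors mTORC1 at lysosomes, at -0.29 ± 0.07 (adjusted p = 0.00331), and PIK3R2, a regulatory subunit of phosphoinositide kinase, at -0.20 ± 0.06 (adjusted p = 0.0193). All 5 moved the same way in both replicates. The sixth, ULK1, the kinase that starts autophagy, was named after its values were seen, because the replicates disagreed (0.22 and -0.34, adjusted p = 0.0421). Without the replicate block none of the 6 passed. DESeq2 gave no adjusted p to 60 of the 77 genes, with PRKAB1, SESN1, LAMTOR2 and ULK1 among them. By DESeq2, EIF4G1 passed (adjusted p = 0.00882) and PIK3R2 did not (adjusted p = 0.489).

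By role, no group of these 78 genes had more than 1 gene past the threshold in the same direction and measure. Of all genes, 5.75% passed for RNA level, 2.81% for occupancy and 2.15% for TE. With at most 27 genes in a group, these counts do not set any role apart from all genes. The 7 other genes grouped as mTOR complex subunits and tested for TE had a median log2 change of -0.27. The 2 above 0 were TELO2 at 0.21 and TTI1 at 0.19. The 5 below 0 were MLST8, MAPKAP1, PRR5, DEPTOR and AKT1S1, from -0.69 for MAPKAP1 to -0.26 for PRR5. Over all genes tested 51.4% were below 0, and a difference of these 7 genes from that share was not tested. RPTOR and MTOR were above 0 and RICTOR below, none of them past the threshold. The 27 genes of amino acid sensing had a median of -0.02, with 13 above 0 and 14 below. The 5 other genes of the 4E-BP branch had a median of -0.04 and ranged from -0.42 to 0.47, so that none came near EIF4EBP2. The lowest of these 5 was EIF4E, the cap-binding target of the 4E-BPs, at -0.42 ± 0.16 (SE, adjusted p = 0.166).

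**Figure D4:**
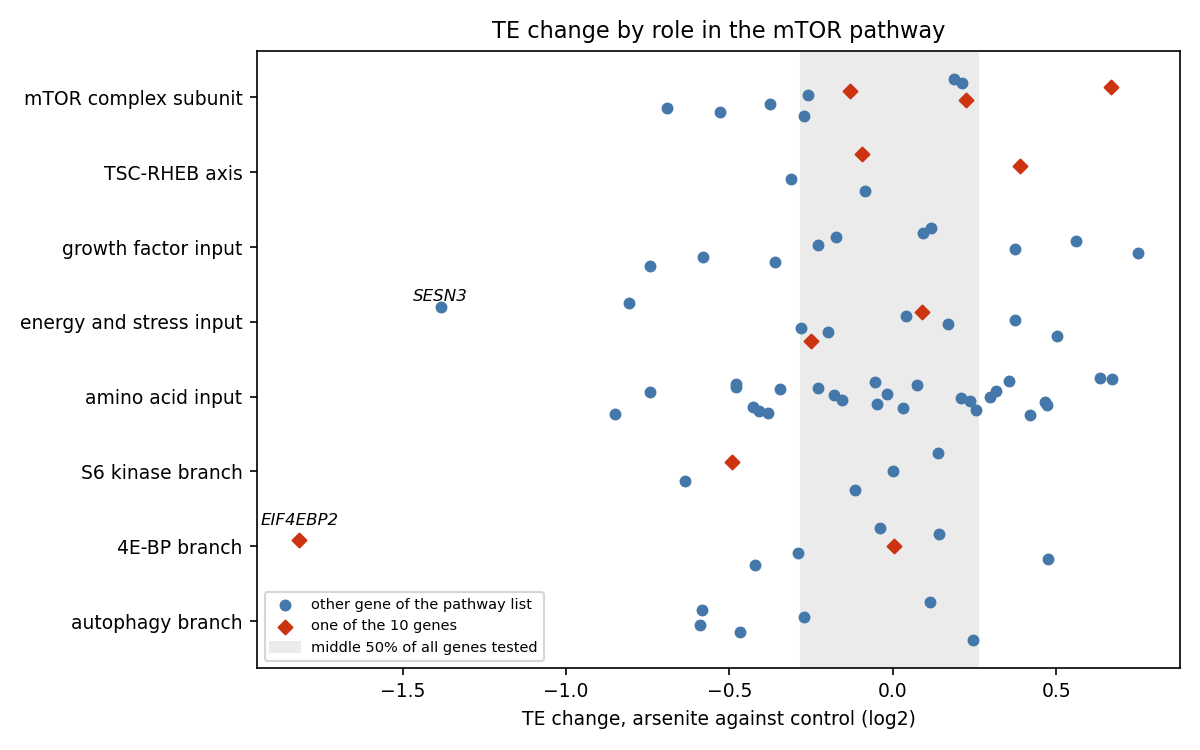
Change in TE with arsenite on the log2 scale for each tested gene of the pathway list (blue circles) and each of the 10 genes (red diamonds), in rows by role, with the middle 50% of all genes tested in grey. The height within a row only spreads the points. EIF4EBP2 at -1.82 and SESN3 at -1.38 lie apart from the other genes to the left.

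The genes most like EIF4EBP2 were sought by the distance between their log2 changes in RNA level and occupancy within each replicate, over 8086 genes with a mean of at least 50 CDS reads in control. Among the nearest were BTBD2 at a distance of 0.35 log2 units, CCNG1, which encodes cyclin G, at 0.38, ADRBK1, a kinase of G protein-coupled receptors, at 0.38, and PCGF5, a Polycomb group protein, at 0.47. CCNG1 had the most reads of these 4, with 582 CDS footprints in control against 131 with arsenite in replicate 1, and 951 against 121 in replicate 2. PCGF5 rested on 10 and 11 CDS footprints in the arsenite libraries. The log2 changes in TE of these 4 genes lay between -1.63 and -1.49, low values that follow from the way the genes were chosen. Of the 9 other mTOR pathway genes described above, RPS6KB1 was nearest at 1.77 and RPTOR farthest at 3.28.

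Z-scores place a change within a replicate among 300 genes of similar read number, with a threshold of 4 in either direction. For TE, EIF4EBP2 had -1.96 in replicate 1 and -3.63 in replicate 2, lower than all but 256 of 9912 and 8 of 11598 genes, and thus within the threshold in both. In replicate 2 the next in size among the 10 genes was RPTOR, with 2.09 after 1.02 in replicate 1. For RNA level DDIT4 had the largest score in replicate 2, at 3.22, and 0.36 in replicate 1. None of the 10 genes passed the threshold of 4 in any measure.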

How the data were processed

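Ribo-seq and mRNA-seq libraries of HEK293T cells were used, 2 replicates each of control and arsenite. The authors trimmed adapters with cutadapt, removed rRNA and spike-in reads, aligned the rest to RefSeq transcripts with Bowtie 1.0.0 and discarded reads of more than 1 gene. They deposited raw counts per transcript, split into leader, CDS and 3′ UTR. Coordinates and the genome build are not given in the sources used here.

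RNA level (transcript reads of mRNA-seq), occupancy (CDS reads of ribo-seq) and TE (interaction of assay and treatment) were each tested over all genes that averaged 10 counts or more, with edgeR 4.0.16 (R 4.3.3), TMM and a quasi-likelihood fit, at a Benjamini-Hochberg adjusted p of 0.05. The replicate was a block here, since by the study's methods the replicates differed in adapters and sequencing and changes were computed within each. Libraries of a replicate deviated together (correlation 0.793 in ribo-seq and 0.866 in mRNA-seq). Single-replicate values had 0.5 added to each count. The procedures were tested on simulated counts with the same preset spread for all genes, which gives no error rate for these data.

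The 10 genes, the pathway list of 88 genes including them, and the tests were chosen with earlier results of these data known. Named were the 10 genes, up to 5 other pathway genes per direction that passed the threshold and moved alike in both replicates, and the 5 genes nearest to EIF4EBP2, of which 1 is not reported here. The list used older symbols for 4 genes. Alternatives were no block, relative log expression and upper-quartile scaling, DESeq2 1.42.0, other count filters, transcripts and read regions, and single replicates. Other tools were Python 3.11.15, scipy 1.17.1, pandas 2.3.3, numpy 2.4.6 and matplotlib 3.10.9.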

Additional observations from a re-analysis of the deposited data

How the results depend on the processing

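The numbers of genes past the threshold depended on the analysis, as did the TE in control of 6 of the 10 genes, which moved by more than the SD of the replicates with whole-transcript mRNA-seq reads. The changes of the 10 genes with arsenite depended on it less, single replicates aside. Without the replicate block, no gene passed for RNA level, occupancy or TE in edgeR (0 each, over all genes and over the pathway list), with 28, 150 and 147 genes at an unadjusted p under 0.05. DESeq2 gave 89 genes for RNA level, 54 for occupancy and 114 for TE (725, 289 and 221 in the main analysis), and in the pathway list 1 for RNA level and 0 for occupancy. It gave no adjusted p to 10015 of 12600 genes for RNA level, 5188 of 10291 for occupancy and 4581 of 10273 for TE. In the pathway list it gave none to 40 of 69 genes for occupancy, SESN3 among them. These counts are therefore not directly comparable with those of the main analysis. With mRNA-seq reads on the CDS, 240 genes passed for RNA level (1 of the pathway list) and 80 for TE (0 of the list). For occupancy, 556 genes passed with relative log expression scaling, 477 with upper-quartile scaling, 540 with no filter and 578 with a mean of at least 50 counts, and 2, 2, 2 and 3 of the pathway list. For TE, 142 passed with upper-quartile scaling, 136 with a mean of at least 50 counts, and 458 with no filter (3 of the list).

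Of 243 values of the 10 genes over these alternatives, single replicates not counted, 233 kept their direction and side of the threshold, or for EIF4EBP2 stayed within the spread of the replicates. Most of these values were not past the threshold in the main analysis, so settings with fewer calls could hardly move them across it. Between the replicates, the sign was the same for 8 of the 10 genes in RNA level, 5 in occupancy and 8 in TE. Over all genes this held for 60.5, 62.9 and 62.1%. The TE change of EIF4EBP1, at 0.0036 in the main analysis, was -0.072 without the replicate block, -0.0010 with relative log expression scaling, -0.10 with DESeq2 and -0.021 with no filter. When the whole transcript was counted in ribo-seq, which adds the 3′ UTR reads, the TE change of EIF4EBP2 was -1.47 and its occupancy change -1.50. Its RNA change was -0.19 with mRNA-seq reads on the CDS. The TE difference between EIF4EBP2 and EIF4EBP1 was -1.70 without the block and ran from -2.12 to -0.96 with single replicates. The RNA change of ULK1 ran from -0.34 to 0.22 with single replicates. Leaving out a replicate leaves no residual degrees of freedom, so these are values with no test. The low number of footprints on EIF4EBP2 and TSC1 in replicate 1 limits their precision.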
